A study of Mus musculus with 2 samples.

Results

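JARID2 and MTF2 were both raised over 289 wide stretches of the mouse embryonic stem cell genome, the subject of this account. They are blocks of neighbouring 1 kb bins, at least 8 kb across, with JARID2 chromatin immunoprecipitation signal throughout and at least 1 bin of MTF2 signal. The blocks were chosen by a rule on the measured values of both libraries. A bin counted for either factor when its reads reached 5 times the mean bin of its chromosome, JARID2 bins were merged over gaps of up to 1 kb, and blocks with 3 or more deposited reads per distinct read start in either library were left out. The rule picked 289 of 25788 JARID2 blocks on chromosomes 1 to 19. Of the 416 JARID2 blocks of 8 kb or more, 126 had no MTF2 bin, and 1 block of 40 kb on chromosome 9 from 2999001 was left out because each of its read starts was deposited 12.8 times in MTF2 and 4.58 times in JARID2.

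The study holds 1 ChIP-seq library (sequencing of DNA recovered with an antibody from sheared chromatin) for MTF2 and 1 for JARID2. Both came from ES cells of the 129SvJae x C57BL/6 strain at passages 10 to 15, grown in serum with ESGRO and kept off feeder cells for 2 to 3 passages before harvest. Nothing in the labels distinguishes the cells of the libraries except the antibody. The MTF2 file held 10986401 reads and the JARID2 file 14465269, of which 8946204 (81.4%) and 12900993 (89.2%) were kept after repeated read starts on the same strand were reduced to 1.

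Neither an input nor a replicate library is among the files used here. Differences between the libraries therefore have no replicate check, and no p-value is given. Intervals of folds, ratios and shares of reads cover counting error only. Those of medians and of shares of blocks treat the chosen blocks as independent draws. None covers variation between libraries. Reads come from a whole population, so binding in fewer cells and less binding per cell cannot be told apart. Without an input, local read coverage raised for reasons other than the antibody cannot be told apart from factor signal either. Labelled cell identity could not be checked against expression markers in these data.

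Polycomb repressive complex 2 (PRC2) methylates histone H3 at CpG-rich control regions of developmental genes and is known for keeping many of them silent in embryonic stem cells. JARID2 is a Jumonji-family protein without known demethylase activity that binds PRC2 and nucleosomes and helps recruit the complex. MTF2 is a Polycomb-like protein with a Tudor domain and PHD fingers that binds unmethylated CpG-rich DNA and also joins PRC2. The accessory proteins are known to sit in different forms of the complex, so where both are found along 1 region is a standard question about PRC2. No source used here gives the genome build of the files. Blocks are therefore named by the files' own coordinates, without genes or sequence.

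The wide shared blocks held more of the reads of both libraries than their share of the bins. They covered 4088 kb, which is 0.172% of the bins with a read in either library, and held 671569 JARID2 reads, or 5.37% of those kept on chromosomes 1 to 19 (95% exact interval 5.35 to 5.38%). They held 83050 MTF2 reads, or 0.970% (0.963 to 0.976%). These shares describe blocks picked for high values, and 1 block on chromosome 8, described further on, gave 78071 of the JARID2 reads. Across the genome 1.88% of bins reached the 5-fold limit in JARID2 and 0.178% in MTF2, and 3.83% of the JARID2 blocks under the limit on repeated reads held a bin at the MTF2 limit.

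Most blocks were close to the width limit. Their median width was 11 kb (quartiles 9 to 16 kb), with 81 blocks of 8 to 9 kb, 170 of 10 to 19 kb and 38 of 20 kb or more, the widest spanning 88 kb. The JARID2 fold over the whole block ranged from 4.74 to 152 with a median of 33.1 (95% interval of the median 30.9 to 36.2). The MTF2 fold ranged from 1.44 to 21.8 with a median of 5.19 (4.87 to 5.50). Scaled to the kept reads of each library, a block held a median of 5.55 times more JARID2 than MTF2 reads (5.20 to 6.05). In 129 blocks the JARID2 fold was 4 to 8 times the MTF2 fold, in 92 it was 8 to 16 times and in 9 at least 16 times, while in 7 blocks it was below the MTF2 fold. Antibody efficiency differs between immunoprecipitations, so these ratios are not ratios of bound protein. Reads were also 52 bp long in MTF2 and 36 bp in JARID2, and the part of read length in the ratios was not tested.

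**Figure D1:**
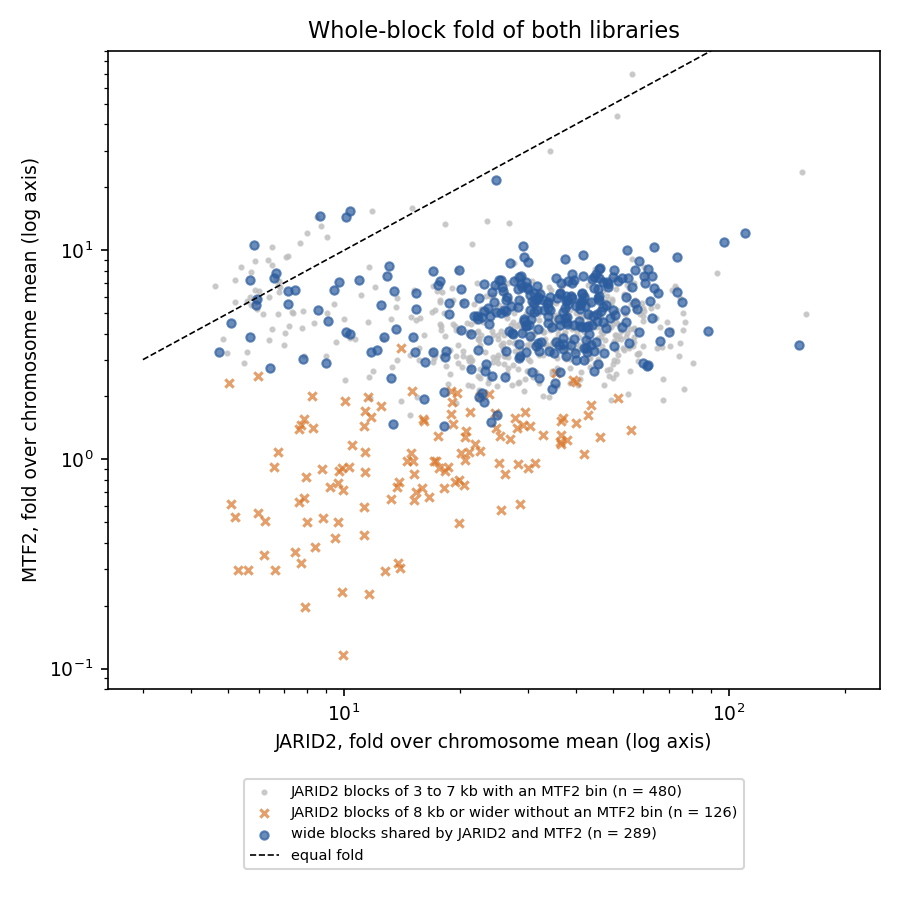
Whole-block JARID2 fold (x axis) against MTF2 fold (y axis), both over the chromosome mean and on log axes, for the 289 wide shared blocks, 126 wide blocks without an MTF2 bin and 480 shared blocks of 3 to 7 kb; each point is 1 block and the dashed line marks equal folds. Most wide shared blocks lie well under the line, at a median of 33.1-fold JARID2 and 5.19-fold MTF2, and 7 lie above it.

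The folds of the factors were weakly related among these blocks. Over the 289 blocks the correlation of log2 folds was 0.07 (Pearson) and the rank correlation 0.13 (Spearman). Over the 264 blocks whose highest JARID2 bin was 20-fold or more, these were 0.24 and 0.20. The points share the 2 libraries and were all selected for high values in both, so the correlations are descriptions. Wider blocks had slightly more MTF2: the median MTF2 fold was 4.85 in blocks of 8 to 9 kb, 5.21 in those of 10 to 19 kb and 5.63 in those of 20 kb or more, and the median JARID2 folds were 33.7, 32.2 and 34.4. The quartiles of the 3 width classes overlapped for both factors.

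MTF2 was not limited to the bin that the rule required. With the highest MTF2 bin of every block left out, the remaining bins averaged a median of 4.64-fold (4.40 to 5.003), and 276 of 289 blocks stayed at 2-fold or more. Of the other bins, 1640 of 3799 (43.2%) reached 5-fold in MTF2, beside 0.178% of all bins. The same measure gave 368 of 1639 bins (22.5%) and a median of 3.15-fold in the 480 shared blocks of 3 to 7 kb. Leaving out 1 bin removes more of these blocks (median width 4 kb) than of the wide ones (11 kb). The 2 shares are therefore not directly comparable. With all bins kept, MTF2 reached 5-fold in 1929 of 4088 bins (47.2%) of wide shared blocks and 848 of 2119 (40.02%) of narrower ones. The median whole-block MTF2 folds were 5.19 and 4.13. In the 126 wide JARID2 blocks without an MTF2 bin, the median without the highest MTF2 bin was 0.84-fold. All bins of those blocks are below 5-fold in MTF2 by choice, which holds this value low. Those blocks also had less JARID2, a median of 15.7-fold against 33.1-fold, so the sets differ in JARID2 level as well as in MTF2.

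MTF2 reached the 5-fold limit in separate runs of bins. That limit is close to the median MTF2 fold of the blocks (5.19), so counting noise alone can break an even signal into runs. The runs are therefore a description, and the spread beyond counting noise is given further on. A block held a median of 2 separate runs of MTF2 bins at 5-fold or more, the longest of them a median of 3 kb. In 134 blocks at least 50% of the bins reached the MTF2 limit, in 2 blocks all of them did, and in 31 blocks only 1 bin did. JARID2 bins at the limit made up 95.2% of the member bins, which the merging rule largely fixes.

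Both factors were lower toward the ends of the blocks. With each block divided into 10 equal parts, the median MTF2 fold was 2.91 in the first part, between 5.12 and 5.67 from the third to the eighth, and 3.11 in the last. The median JARID2 fold was 9.95 in the first part, 31.6 in the third and 9.66 in the last. Outside, MTF2 did not stop at the JARID2 edge: its median was 2.72 in the first kb inside, 1.67 in the first kb outside, 1.39 in the second, and 0.91 at 20 kb. JARID2 went from 8.78 to 3.06 across the same edge, a step that its own threshold sets, and was 1.21 at 20 kb. In wide blocks without an MTF2 bin, median MTF2 stayed between 0.59 and 0.93 on both sides of the edge. Inside those blocks the choice itself keeps every bin below 5-fold in MTF2.

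**Figure D2:**
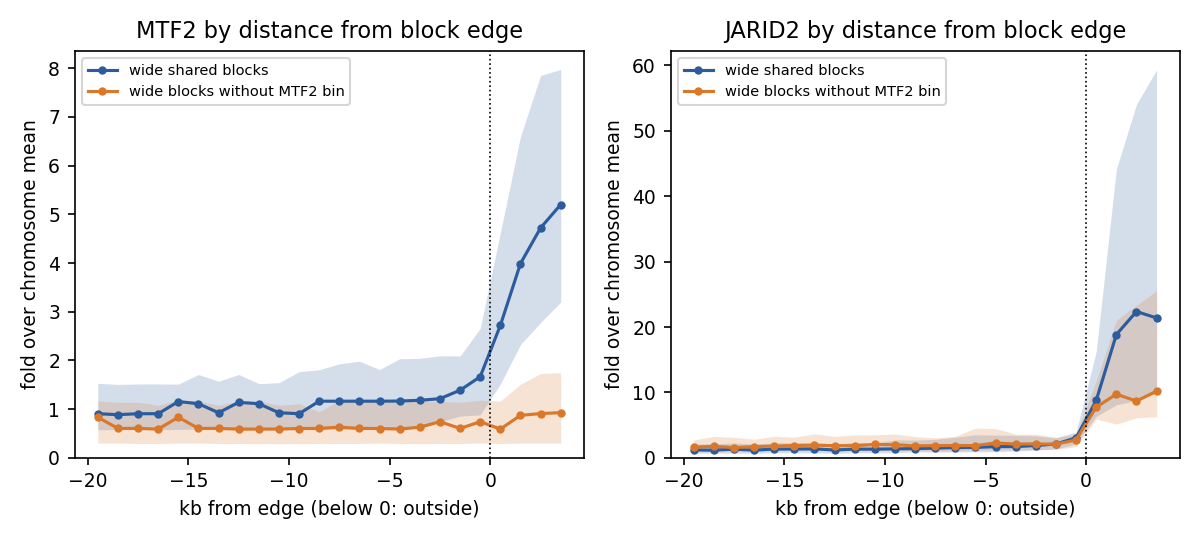
Median fold over the chromosome mean by distance from the block edge (x axis, kb, outside below 0) for MTF2 (left) and JARID2 (right), with quartiles shaded, in wide shared blocks and wide blocks without an MTF2 bin. In wide shared blocks median MTF2 goes from 1.67 in the last kb outside to 5.20 in the fourth kb inside. In the other blocks, picked for having no bin at 5-fold in MTF2, it stays below 1.

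JARID2 was more sharply peaked within the blocks than MTF2. Unevenness was measured as the spread of the 1 kb bins beyond counting noise, divided by their mean. Its median was 0.87 for JARID2 (0.85 to 0.89) and 0.51 for MTF2 (0.49 to 0.54), and JARID2 was the more uneven factor in 248 of 289 blocks (85.8%). The count was 101 of 126 in wide blocks without an MTF2 bin and 351 of 480 in shared blocks of 3 to 7 kb. The JARID2 peaks were high: the highest JARID2 bin of a block had a median of 102-fold (quartiles 70.0 to 132), and the highest MTF2 bin 10.8-fold (8.14 to 13.96).

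**Figure D3:**
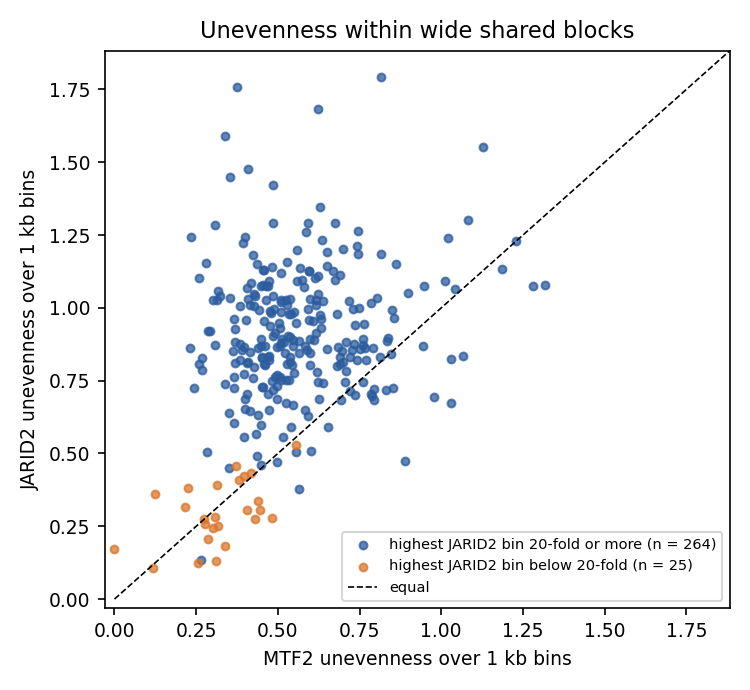
Unevenness of MTF2 (x axis) and JARID2 (y axis) over the 1 kb bins of each of the 289 wide shared blocks; each point is a block and the dashed line marks equal values. Of 289 blocks, 248 lie above the line, and blocks whose highest JARID2 bin is below 20-fold, a limit that caps their JARID2 unevenness, lie near it.

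The highest JARID2 and MTF2 bins lay apart in most blocks. They were the same bin in 33 of 289 blocks (11.4%). The count was 29 of 126 in wide blocks without an MTF2 bin and 131 of 480 in shared blocks of 3 to 7 kb. With a median of 11 bins per block, unrelated peaks would also seldom share a bin. The share under unrelated placement was not computed, so the separation is a description. At a resolution of 200 bp the highest steps of the factors were a median of 2200 bp apart (1800 to 2600 bp), and within 1000 bp in 92 blocks (31.8%). In the narrower shared blocks they lay within 1000 bp in 339 of 480, where there is less room to be apart, and in wide blocks without an MTF2 bin in 54 of 126. The correlation between the factors over the bins of a block had a median of 0.15 (quartiles -0.11 to 0.44) and was above 0 in 185 of 289 blocks. In the bin highest in JARID2, MTF2 had a median of 4.73-fold, and the median over blocks of its mean in the other bins was 5.25-fold. MTF2 was higher in the JARID2 peak bin than in the rest of the block in 136 of 289 blocks (47.1%, exact interval 41.2 to 53.0%).

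Bin by bin within the wide shared blocks, MTF2 was higher with more JARID2 up to about 50-fold and not beyond. With the highest MTF2 bin of each block left out, median MTF2 was 2.62 in the 193 bins with JARID2 below 5-fold and 3.46 in the 998 bins from 5 up to 10-fold. It was 4.85 from 10, 5.38 from 20 and 5.34 from 50 up to 100-fold. In the 361 bins with more JARID2 than that it was 4.13. Leaving out 3 blocks with evenly spaced reads, described further on, brought the last value to 4.65 in 243 bins. Bins outside the wide shared blocks had less MTF2 at each JARID2 level. Their medians were 0.89, 0.59, 0.58, 1.21, 2.04 and 2.78 in the same 6 classes, still higher beyond 50-fold. The quartiles overlapped in the lowest class and at 50-fold and above. The 2 groups of bins were separated by MTF2 itself through 1 bin per block, so this is a description of neighbours of a high MTF2 bin.

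Member bins high in one factor and low in the other were counted both ways. Of the 1071 member bins with JARID2 at 50-fold or more, 40 (3.73%) had MTF2 below 1-fold. Of the 198 gap bins with JARID2 under 5-fold, 42 (21.2%) had MTF2 at 5-fold or more. Some of these were the highest MTF2 bin of their block, which the rule puts at 5-fold or more. With those bins left out, the share was 19.2% of 193 gap bins, beside 43.2% of all member bins.

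**Figure D4:**
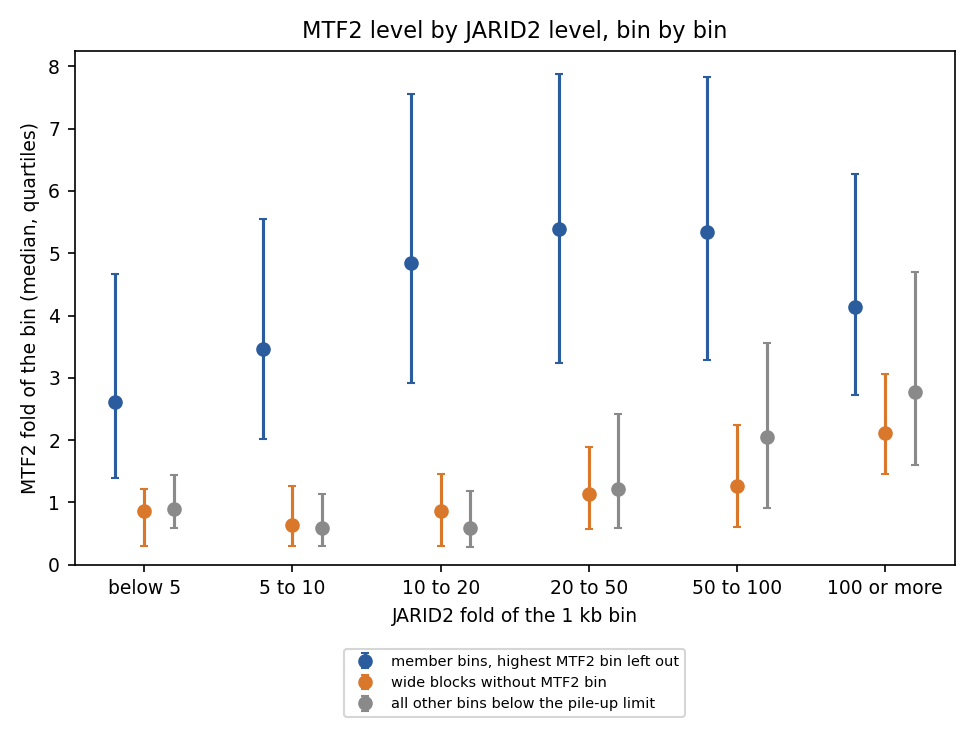
Median MTF2 fold with quartiles (y axis) of 1 kb bins grouped by their JARID2 fold (x axis), for wide shared blocks without their highest MTF2 bin, wide blocks without an MTF2 bin, and all other bins. Median MTF2 inside the wide shared blocks is 2.62 in the lowest class, 5.38 between 20 and 50-fold and 4.13 in the highest class.

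The widest blocks fell into kinds with different shapes. Of the 6 blocks of 50 kb or more, 4 had JARID2 and MTF2 levels that rose and fell over their length. They lay on chromosomes 15, 2, 6 and 11 and held 12, 11, 11 and 8 runs of MTF2 bins at 5-fold or more. Counting noise can break up such runs. MTF2 unevenness, which leaves that noise out, was 0.47, 0.50, 0.45 and 0.40. The correlations between the factors over bins were 0.10, 0.10, 0.10 and 0.06. The gene table at hand, which is of another build than the one the coordinates fit, places the Hoxc, Hoxd, Hoxa and Hoxb genes, homeodomain regulators of body-axis identity and classic PRC2 targets, on these chromosomes. The 4 chromosomes hold 80 of the 289 blocks, and 5 of the 6 of 50 kb or more, including a differently shaped block on chromosome 11 from 3022001. Whether any of the blocks coincide with those genes was not analysed here.

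The block on chromosome 15 from 102775001 to 102848000 was 73 kb wide. It held 1599 MTF2 reads (6.65-fold, exact interval 6.33 to 6.99) and 8998 JARID2 reads (29.9-fold). Over its bins MTF2 ran from 1.21 to 19.1-fold with a median of 6.07, and JARID2 from 3.39 to 128-fold with a median of 17.7. Its highest JARID2 bin was the 21st kb and its highest MTF2 bin the 50th, and 47 of 73 bins reached 5-fold in MTF2.

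The block on chromosome 2 from 74455001 to 74518000 was 63 kb wide, with 1558 MTF2 reads (7.19-fold) and 10582 JARID2 reads (39.5-fold). JARID2 was at 141-fold in its 15th kb and 2.59-fold in its lowest bin. MTF2 was between 0.58 and 16.6-fold, highest in the 5th kb. In this block 40 of 63 bins reached 5-fold in MTF2 and 58 in JARID2.

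The block on chromosome 6 from 52127001 to 52185000 was 58 kb wide, with 1449 MTF2 reads (7.13-fold) and 11478 JARID2 reads (51.5-fold). Its JARID2 peak of 170-fold lay in the 37th kb and its MTF2 peak of 13.98-fold in the 57th. The lowest MTF2 bin of this block was at 2.00-fold, and signal went on outside it, with a median over the 20 flanking bins of 3.28-fold in MTF2 and 8.85-fold in JARID2.

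On chromosome 11, blocks of 53 kb from 96085001 and of 32 kb from 96140001 were separated by a gap of 2 kb. The wider held 979 MTF2 reads (5.82-fold) and 7925 JARID2 reads (28.6-fold), and the narrower 588 (5.79-fold) and 4414 (26.3-fold). The MTF2 folds of the pair lay within each other's exact intervals (5.46 to 6.19 and 5.33 to 6.27). MTF2 in the wider block peaked at 14.2-fold in its 49th kb, and JARID2 at 106-fold in its 31st kb.

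A further block of this shape, 34 kb wide, lay on chromosome 3 from 129186001 to 129220000. It had 760 MTF2 reads (6.21-fold) and 4951 JARID2 reads (41.5-fold), with JARID2 at 170-fold in its 21st kb and MTF2 at 16.7-fold in its 7th. Its flanks were near background, at a median of 0.97-fold in MTF2 and 1.14-fold in JARID2.

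**Figure D5:**
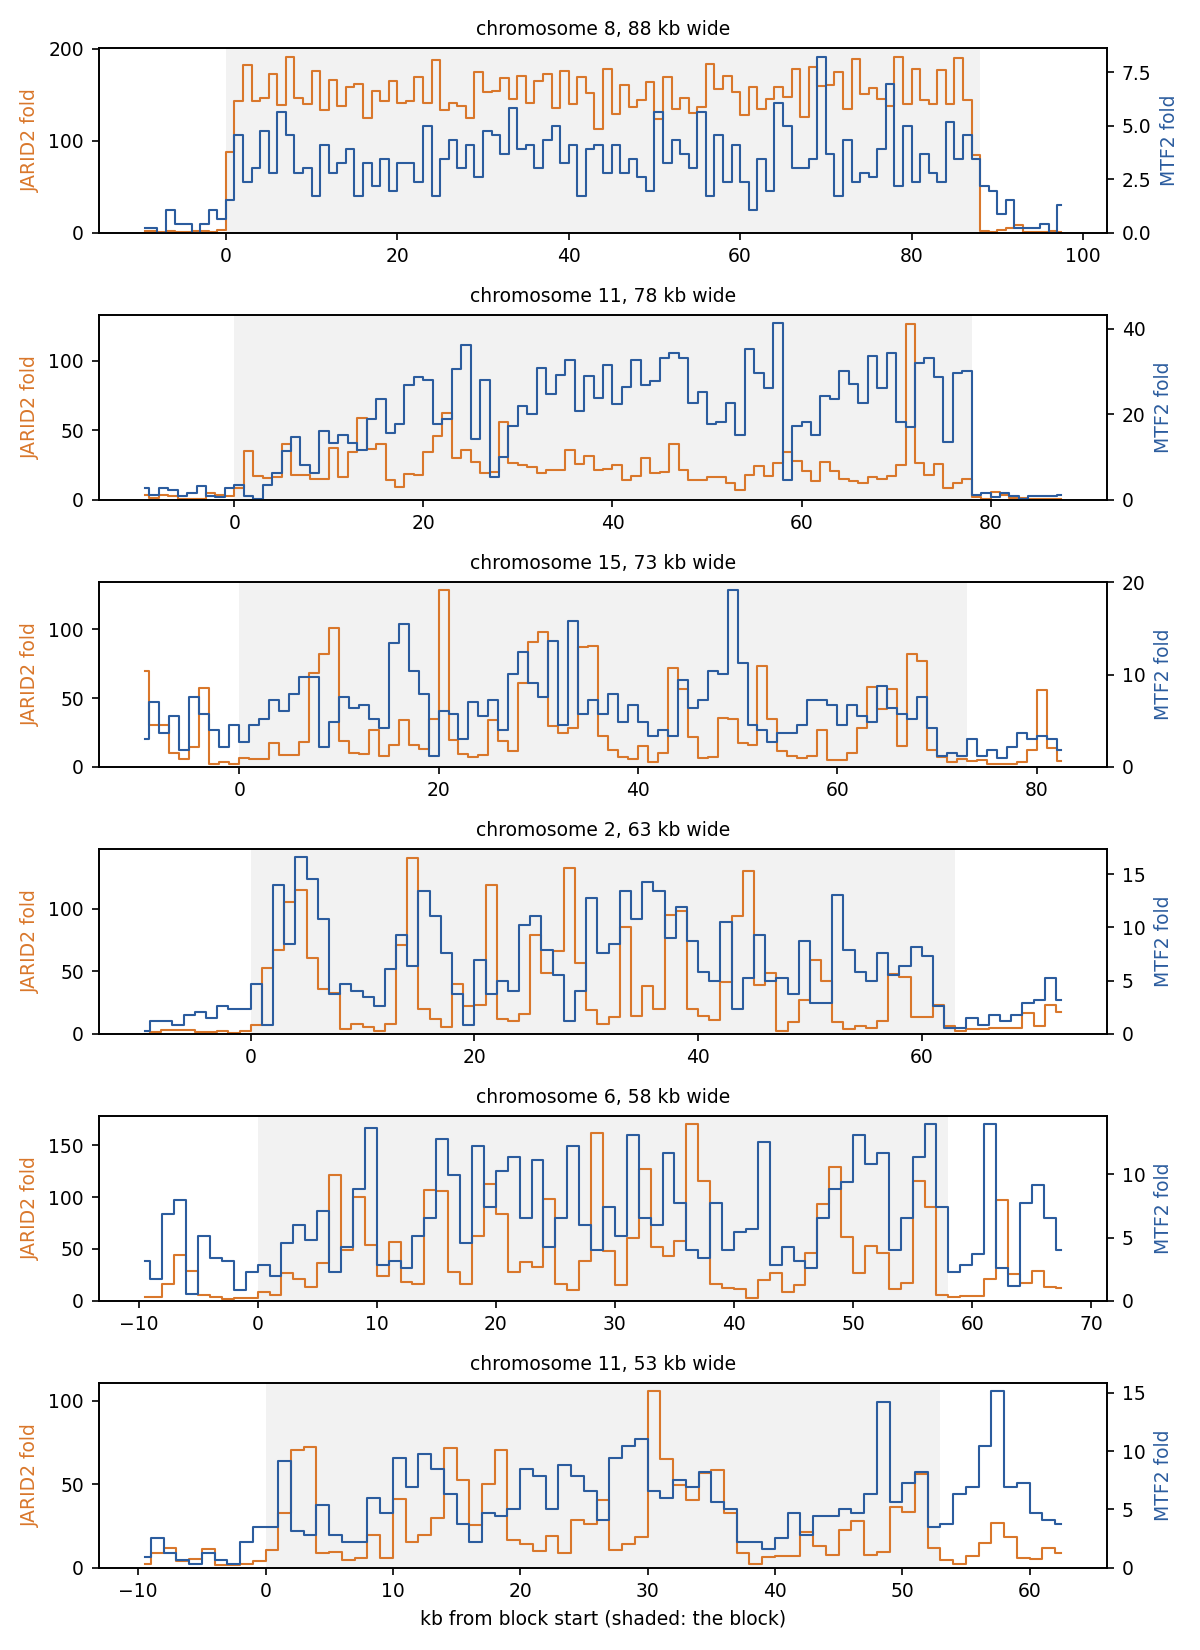
JARID2 fold (orange, left axis) and MTF2 fold (blue, right axis) in 1 kb bins along the 6 widest blocks with 10 kb on each side; the x axis gives kb from the block start and shading marks the block. JARID2 stays between 84.5 and 192-fold over all 88 kb of the first block, and MTF2 reaches 5-fold in 73 of 78 bins of the second.

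The widest block of all had an even JARID2 level at the scale of 1 kb bins, with regular spacing at finer steps described further on. On chromosome 8 from 126423001 to 126511000 it held 78071 JARID2 reads, or 152-fold, with no bin under 84.5-fold and none over 192-fold, an unevenness of 0.13. It held 1432 MTF2 reads (3.52-fold, 3.34 to 3.71), and 8 of 88 bins reached 5-fold. Scaled to depth, JARID2 reads were 37.3 times the MTF2 reads (35.4 to 39.3), the highest ratio of the 289 blocks, and the next was 17.2.

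Regular spacing of reads was examined in the 38 blocks of 20 kb or more. The strongest lag was the same in both libraries in 5 of them, and 3 of these had a JARID2 autocorrelation of 0.5 or more. The limit was set after the values were seen, and a block on chromosome 19 from 45274001 passed it in JARID2 (0.54 at 1200 bp) with a different lag in MTF2. In the chromosome 8 block the JARID2 reads, counted in 100 bp steps, correlated with themselves at a lag of 1700 bp (autocorrelation 0.77), and MTF2 peaked at the same lag (0.39). A pair of blocks on chromosome 6, of 37 kb from 47580001 and 43 kb from 47666001, had a lag of 4300 bp in both libraries. The autocorrelations in the narrower of the pair were 0.80 for JARID2 and 0.71 for MTF2, and in the wider 0.56 and 0.42. That pair held 1567 and 1649 MTF2 reads (12.1-fold and 10.9-fold) and 15624 and 16012 JARID2 reads (110-fold and 96.9-fold). Of the 20 flanking bins of each, the 10 on the side of the other block held no read in either library, and the remaining 10 had medians of 1.14 and 1.28-fold in MTF2 and of 1.56-fold beside each block in JARID2. The 3 evenly spaced blocks also had the most deposited reads per kept read of all 289, at 1.55, 1.53 and 1.49 in JARID2. No source used here says how reads that fit several copies of a sequence were placed, and the part of repeated sequence in these levels was not tested. Without the 3 blocks the median JARID2 fold was 32.7 and the median MTF2 fold 5.19.

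Another block had more MTF2 than any other. On chromosome 11 from 3022001 to 3100000, 78 kb held 5390 MTF2 reads (21.8-fold, 21.2 to 22.4) and 10131 JARID2 reads (24.8-fold, 24.3 to 25.3). MTF2 reached 5-fold in 73 of 78 bins, 54 of them in 1 unbroken run. The ratio of JARID2 to MTF2 was 1.29 (1.24 to 1.33), and a single bin, the 72nd, stood at 127-fold in JARID2 beside a median of 20.2. The part of local read coverage in these levels was not tested. Among compact blocks with a JARID2 bin at 20-fold or more, the highest MTF2 folds were on chromosomes 5, 1 and 15. They were the blocks from 67373001 (9 kb, 318 reads, 10.4-fold, with JARID2 at 29.2-fold), from 157497001 (9 kb, 329 reads, 10.4-fold, JARID2 63.7-fold) and from 35237001 (11 kb, 364 reads, 10.1-fold, JARID2 54.4-fold), in that order.

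The compact blocks among the 5 highest in JARID2 had MTF2 folds inside the middle range of all blocks (quartiles 3.83 to 6.51). The block on chromosome 14 from 68809001 (8 kb) had 2626 JARID2 reads (88.1-fold) and 113 MTF2 reads (4.13-fold). That on chromosome 5 from 107960001 (8 kb) had 2659 (75.7-fold) and 154 (5.69-fold). Compact blocks with somewhat less JARID2 lay outside that range on both sides. On chromosome 1, MTF2 was 10.4-fold from 157497001 (JARID2 63.7-fold) and 2.88-fold from 74879001 (JARID2 59.8-fold). By ratio of JARID2 to MTF2 reads, the widest block, on chromosome 8, was followed by a block on chromosome 1 from 74879001 (17.2, 13.95 to 21.5). Next was one on chromosome 11 from 94933001 (17.2, 13.03 to 23.1). Blocks on chromosome 14 from 78501001 (16.3, 12.9 to 20.7) and chromosome 16 from 17709001 (15.96, 13.4 to 19.1) followed. The intervals of these 4 overlapped, so their order is not resolved. In the chromosome 11 block of this group 52 MTF2 reads gave 1.64-fold over 10 kb, with 1 bin at 5.67-fold.

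At the other end 25 blocks had a broad, low JARID2 signal, with no JARID2 bin at 20-fold. Their median JARID2 fold was 7.44 and their median MTF2 fold 5.83, and in 20 of them the JARID2 fold was less than 2 times the MTF2 fold. With bins confined between the limits of 5 and 20-fold, their JARID2 unevenness and their ratio to MTF2 are held low by the way they were picked. Median unevenness was 0.28 for JARID2. For MTF2, whose bins have no upper limit, it was 0.31, beside 0.53 in the remaining blocks. MTF2 in the 5 kb on either side had medians of 3.98 (lower coordinates) and 6.02-fold (higher coordinates), compared with 1.23 and 1.33-fold beside the remaining blocks. Median JARID2 in the same flanks was higher than beside the remaining blocks, and under the 5-fold limit on both sides. The 25 blocks also lay in groups: 17 of 25 had another wide shared block within 100 kb, against 53 of 264. The part of that limit in the grouping, by splitting a broad signal near it into separate blocks, was not tested.

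Of the 25, 8 lay on chromosome 8, 5 on chromosome 1, 5 on chromosome 5, 2 each on chromosomes 7 and 17, and 1 each on chromosomes 2, 4 and 13. On chromosome 8 they included the 4 lowest ratios of JARID2 to MTF2 reads. The block from 19854001 (13 kb) had 931 MTF2 reads (15.5-fold) and 786 JARID2 reads (10.4-fold), a ratio of 0.58 (0.52 to 0.64). The block from 20337001 (15 kb) had 1015 (14.6-fold) and 756 (8.64-fold), and the ratio was 0.51 (0.46 to 0.56). Those from 19995001 and 20290001 had ratios of 0.61 (0.54 to 0.68) and 0.47 (0.41 to 0.56). The fifth lowest, on chromosome 5 from 14976001, had 293 MTF2 and 301 JARID2 reads and a ratio of 0.70 (0.60 to 0.83). In all 5 the interval stayed below 1, but these blocks were named for having the lowest ratios, so this describes the ranking. With no input, the part of local read coverage in their levels was not tested. Without the 25 blocks, the median ratio over the other 264 was 5.94.

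The blocks were spread unevenly over chromosomes. Chromosome 2 had 37 (20.8 per 100 Mb of bins with a read), chromosome 5 had 28 (19.1), chromosome 19 had 10 (17.2) and chromosome 13 had 20 (17.2), while chromosome 16 had 4 (4.23). The fold is taken against the mean of the same chromosome, which was 3.18 to 4.62 reads per bin in MTF2 and 3.51 to 5.83 in JARID2, highest in both on chromosome 8.

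Values the rule did not use were alike over most blocks. The share of kept reads on the plus strand had a median of 50.3% in MTF2 and 50.2% in JARID2, and lay between 40 and 60% in 283 and 286 of 289 blocks. The exception farthest out was a 16 kb block on chromosome 2 from 116238001, where 10.95% of 703 JARID2 reads but 48.9% of 219 MTF2 reads were on the plus strand. Of the MTF2 reads in the wide shared blocks, 25922 (31.2%) had the deposited score 0, beside 41.5% on chromosomes 1 to 19. The share was 30.2% in shared blocks of 3 to 7 kb and 25.9% in wide blocks without an MTF2 bin. By wide shared block it ran from 7.02 to 46.9% (quartiles 27.6 to 34.1%). No source used here says what that score means.

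The limits of the rule cut through a continuous range. The blocks just inside the MTF2 limit had highest MTF2 bins of 5.01, 5.13 and 5.14-fold (chromosome 9 from 110581001, chromosome 1 from 74731001 and chromosome 7 from 59763001), and the wide JARID2 blocks just outside had 4.98, 4.97 and 4.96-fold (chromosome 8 from 73415001, chromosome 14 from 31288001 and chromosome 4 from 3006001). At the width limit 39 members were 8 kb wide and 38 shared blocks were 7 kb wide. The most repeated member, at 1.55 deposited reads per kept read, was well under the limit of 3.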

How the data were processed

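Each deposited file lists 1 read per line with its position, strand and a score, in reads of 52 bp (MTF2) and 36 bp (JARID2), per the file contents. The deposited score ran from 0 to 10 in MTF2 and was 1000 throughout in JARID2. No source used here names the aligner, its settings or the genome build. The labels' protocols state sonicated nuclei, 15 PCR cycles and an Illumina Genome Analyzer.

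Repeated reads (equal chromosome, strand and 5′ end) were reduced to 1, and the kept reads were moved 70 bp (MTF2) or 100 bp (JARID2) downstream and counted in 1 kb bins. The fold is the count over the chromosome's mean of bins up to the 99th percentile. This removal lowers JARID2 more, since the blocks held a median of 1.23 deposited reads per kept read in JARID2 and 1.06 in MTF2. The blocks and lists were chosen with earlier results of these data known. Blocks were named by rank: the 10 widest, the 10 highest in MTF2, the 5 highest in JARID2, the 5 highest and 5 lowest ratios, and 3 on each side of a limit. Blocks outside those ranks (chromosome 2 from 116238001, chromosome 19 from 45274001 and the block left out) were chosen after their values were seen.

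Intervals are exact Poisson for folds, Clopper-Pearson for shares, exact conditional for ratios and order-statistic for medians, at 95%. PCR copies are not independent molecules. Intervals of folds, ratios and shares of reads cover counting error only, and the others treat the chosen blocks as independent draws. With 1 library per factor no test was made. The block finder was tested on simulated data. Python 3.11.15, NumPy 2.4.6, pandas 2.3.3, SciPy 1.17.1 and matplotlib 3.10.9 were used. Alternatives in bin position, thresholds, expected level, repeat removal and depth are given at the end.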

Additional observations from a re-analysis of the deposited data

Results flagged for a closer look

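Chromosome X was outside the rule, and 32 blocks there would have met it. It was noted because signal appeared in data that the comparisons did not use. Most of them lay between 119116001 and 121591000, and the block from 119116001 (20 kb) had 948 MTF2 reads (21.2-fold) and 803 JARID2 reads (19.1-fold). The block from 165319001 (35 kb) had 1273 MTF2 reads (16.2-fold) and 4069 JARID2 reads (55.3-fold), and that from 11233001 (17 kb) had 97 (2.55-fold) and 1646 (46.1-fold). Local read coverage on chromosome X was not tested as a part of these levels.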

How the results depend on the processing

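No paired analysis was possible because each factor has 1 library, and leaving out a replicate was not possible for the same reason. Of 141 values under 21 alternatives, 107 stayed within 1.5 times the reported count or within the interval of the reported median or share, and no value has a direction to change. The alternatives without the evenly spaced blocks and without the 25 blocks of low JARID2 were chosen after seeing the data.

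The number of blocks ranged from 192 with JARID2 bins at 8-fold to 386 with widths from 6 kb. The median width was 10 kb with widths from 6 kb and 13 kb from 10 kb. The median JARID2 fold was 39.5 with all deposited reads counted, 30.3 with the mean of all bins as the expected level, 29.1 and 41.6 with JARID2 bins at 4 and 8-fold, 38.2 with no gap merged and 30.4 with gaps of 2 kb merged. The median MTF2 fold was 4.76 and 5.97 with JARID2 bins at 4 and 8-fold, 5.67 with no gap merged, 4.86 with gaps of 2 kb, 5.76 with an MTF2 bin at 8-fold and 5.89 with MTF2 scores above 0. Outside the highest MTF2 bin it was 4.19, 5.43, 5.09, 4.39, 5.20 and 5.20 under the same 6 settings.

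The share of bins at 5-fold MTF2, 47.2% as reported, was 48.9% with the mean of all bins, 42.9% and 54.8% with JARID2 bins at 4 and 8-fold, 51.7% with no gap merged, 44.1% with gaps of 2 kb, 43.6% and 53.1% with the MTF2 limit at 4 and 8-fold, and 52.1% with scores above 0. The median ratio of JARID2 to MTF2 reads was 7.20 with all deposited reads, 6.18 with JARID2 bins at 8-fold, 5.14 with an MTF2 bin at 8-fold and 5.02 with scores above 0. The median MTF2 fold in bins at 100-fold JARID2 or more was 4.65 without the evenly spaced blocks. Thinning JARID2 to the MTF2 depth gave 287 blocks. The cause of the other shifts was not tested beyond the construction of each setting. A bin at the chromosome mean holds few reads, so single bins are imprecise, more so in MTF2.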
